A study of Mus musculus with 10 samples.

Results

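The proteasome is the protease that breaks down proteins tagged with ubiquitin. The genes examined here are those of its subunits, its regulators and some of its assembly factors, measured in whole femurs of mice. They were chosen by name: every gene whose symbol begins with Psm, then a letter from a to g, then a digit, with 1 further gene left out by the rule. That gave 43 of the 19505 genes on the array and 65 of its 41174 probes. All 43 genes and all 65 probes were bright enough to be tested, and none was saturated. The study compared 5 freely moving control mice with 5 mice hung by the tail for 24 h, a procedure that takes the load off the hindlimbs. Both groups were male ICR mice aged 6 months for which the labels name no engineered allele and no agent, and each array held the RNA of 1 animal's femur. The labels describe suspension of the whole animal, not unloading of the femur alone.

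The proteasome has a barrel-shaped 20S core, made of outer alpha rings and inner beta rings, and a 19S regulatory particle that caps the barrel. The 19S base holds a ring of ATPases that unfold substrates and push them into the core, and the 19S lid holds the enzyme that removes ubiquitin. In cells exposed to interferon, and in blood-forming and immune cells at rest, some catalytic beta subunits are replaced by immunoproteasome subunits. In bone, the proteasome degrades regulators of osteoblast differentiation, and it degrades the inhibitor of the NF-kB signalling that osteoclast formation needs.

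Values are on a log2 scale, each array's processed signal set against its own 75th percentile, and differences subtract the control mean from the unloaded mean. A value is therefore relative to the other RNAs of the same array, and levels of different genes are not compared, because probes differ in brightness for the same amount of RNA. In whole bone, fewer cells of a type and less RNA per cell cannot be told apart. The arrays lay on 3 slides: slide 1 held 4 controls, slide 2 held 1 control with 3 unloaded animals, and slide 3 held 2 unloaded animals, so only slide 2 gives a comparison within a slide. The share of spots well above background ran from 89.8%, in unloaded animal 5, to 95.5%. Markers of osteoblasts and osteocytes were well above background, with a mean over 12 genes between 3.74 and 4.24 on the 10 arrays. So were markers of neutrophils (12 genes, 4.55 to 4.92), erythroid cells (10 genes, 3.43 to 4.26) and skeletal muscle (14 genes, 2.40 to 3.67). Over all genes tested, 1 of 18955 passed an adjusted p of 0.05 in limma, which is 0.00528% (1 of 38629 probes, 0.00259%): Ddit4, an inhibitor of mTORC1 signalling, with a difference of 1.17 ± 0.12 (SE, n = 5 and 5, adjusted p = 0.00794).

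No proteasome gene passed that threshold. The differences of the 43 genes ran from -0.30 for Psmd1 to 0.32 for Psmb6, and the smallest adjusted p in limma was 0.300, for Psmc6. At an unadjusted p below 0.05, 0 of 43 genes were higher, against 9.90% of all genes, and 2 of 43 were lower, Psmc6 and Psmd11, against 5.87% of all genes. On the brightest probe, which stands for a gene throughout, no member had groups that did not overlap, whereas 3.30% of all genes did. Among all 65 member probes, 2 dimmer ones had every unloaded animal below every control. On the brightest probe 1.80% of all genes showed that, and the share over all probes is not given here. The 2 were the second probe of Psmc6 and 1 of the 3 probes of Psmd12 (-0.22 ± 0.09, SE, adjusted p = 0.280 in limma), whose brightest probe had -0.04. In the fit without slide, the 95% interval lay within a 1.5-fold change in either direction for 41 of 43 genes, all but Psmb6 and Psmd1, and within a 1.3-fold change for 25. The widest bounds were -0.68 for Psmd1 and 0.73 for Psmb6. With slide as a fixed block the intervals were wider, and 14 of 43 lay within a 1.5-fold change, with bounds down to -1.07 and up to 0.67. The median standard error of the members was 0.12, equal to that of all genes tested.

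**Figure D1:**
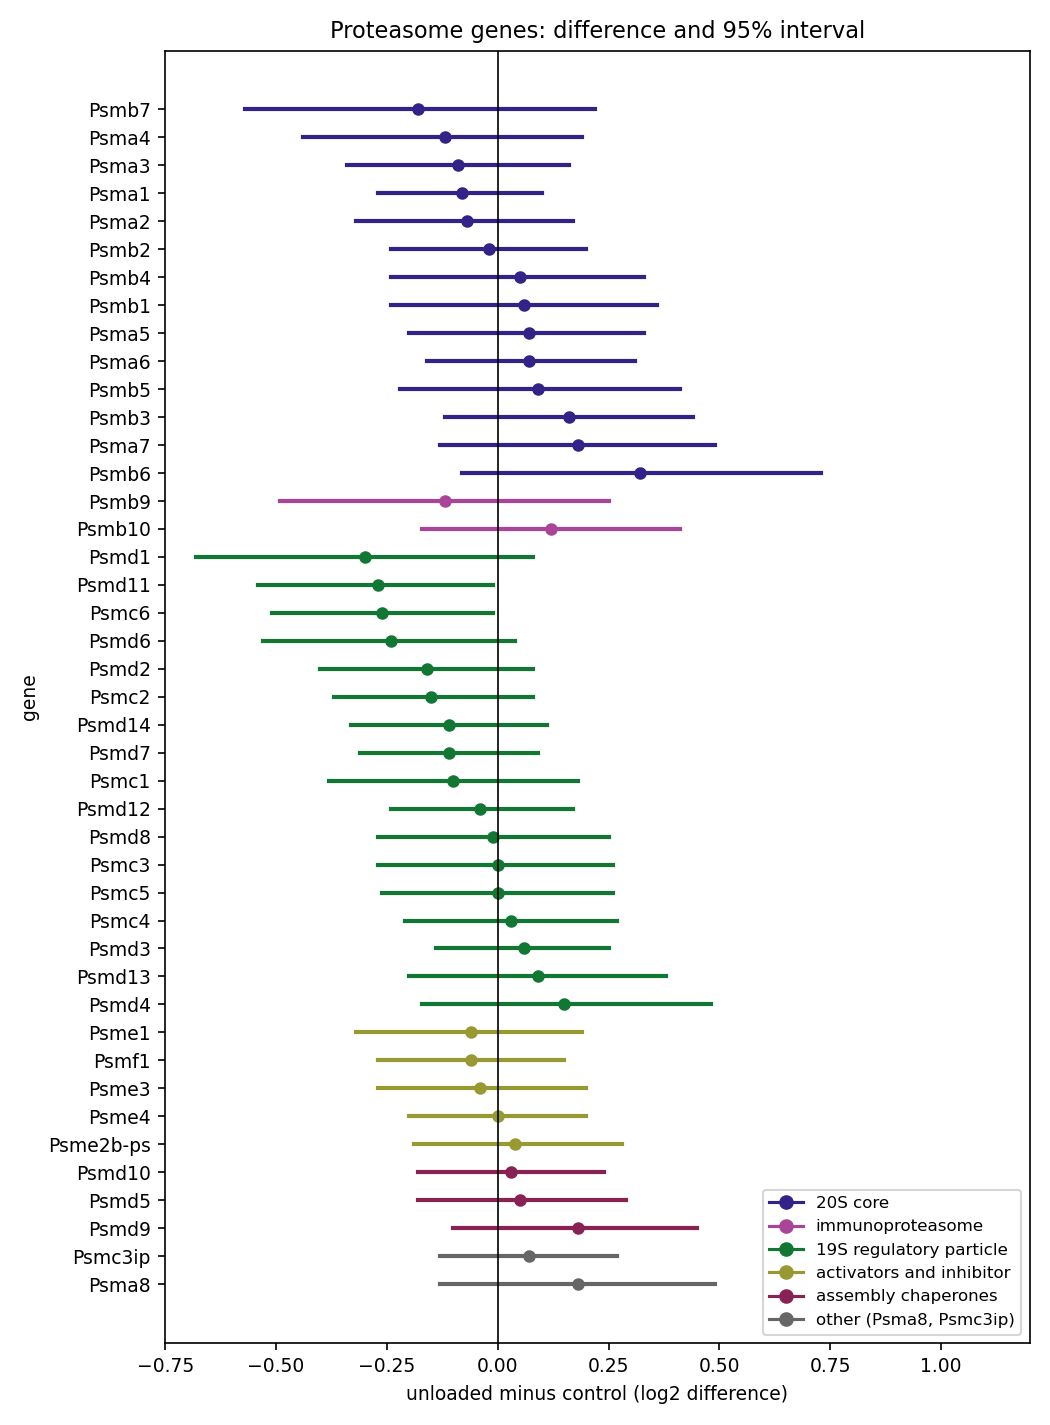
Difference between unloaded and control femurs for each of the 43 genes (horizontal axis, log2 scale), with the 95% interval from limma as a line and the class of the gene as colour. The intervals of Psmc6 and Psmd11 alone lie wholly below 0, and none lies wholly above it.

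The 20S core was represented by all 14 of its constitutive genes, 7 of the alpha ring and 7 of the beta ring. Their differences lay on both sides of 0, with 8 positive and 6 negative, and had a median of 0.05, the same as the median of 0.05 over all genes. The alpha ring genes had a median of -0.07, with 4 of 7 negative, and the beta ring genes 0.06, with 2 of 7 negative. Of the alpha ring, Psma7 had the highest difference, 0.18 ± 0.14 (SE, adjusted p = 0.499 in limma). Its controls read 4.43, 4.32, 4.71, 4.20 and 4.60 and its unloaded animals 4.22, 4.54, 4.73, 4.66 and 5.02. Unloaded animal 5 was the highest of all 10 arrays and unloaded animal 1 nearly the lowest, so the groups overlapped. The other 6 alpha ring genes lay between -0.12 and 0.07.

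The proteolytic sites of the constitutive core are carried by Psmb5, Psmb6 and Psmb7, which have the chymotrypsin-like, caspase-like and trypsin-like activity respectively. Psmb5 read 2.23, 2.13, 2.64, 1.92 and 2.53 in controls and 2.01, 2.51, 2.34, 2.52 and 2.54 in unloaded animals. The spread within controls spanned the whole range of the unloaded animals, and the difference was 0.09 ± 0.15 (SE, 95% interval -0.22 to 0.41). Psmb6 read 3.01, 2.96, 3.43, 2.80 and 3.49 in controls and 2.99, 3.41, 3.52, 3.31 and 4.10 in unloaded animals. Its difference of 0.32 ± 0.19 (SE, adjusted p = 0.382 in limma) was the largest positive one among the members, and without unloaded animal 5, its highest array, it was 0.17. Psmb7 read 0.88, 1.11, 1.57, 0.56 and 0.99 in controls and 0.71, 1.18, 0.68, 1.18 and 0.47 in unloaded animals. That gave -0.18 ± 0.18 (SE, 95% interval -0.57 to 0.22), with unloaded animal 5 now the lowest of all 10. The array that was highest for Psmb6 was thus the lowest for Psmb7, although both subunits sit in the same ring. Psmb3, a beta subunit without a proteolytic site, had a difference of 0.16 ± 0.13 (SE) on its brighter probe and 0.18 on the other. Psmb2, also without one, had -0.02 ± 0.10 (SE), and the other 2 beta ring genes had 0.05 and 0.06.

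The values on slide 2 alone ran differently for the core. There, with 1 control against 3 unloaded animals, all 14 core genes had a negative difference, with a median of -0.18, and Psmb5, Psmb6 and Psmb3 stood at -0.24, -0.19 and -0.24. The median over all genes was -0.01 on that slide. Control 5, the only control on slide 2, had the second highest mean of the core among the controls, and a single array sets the control level there. With each array scaled to its median instead of its 75th percentile, which moved the median of all genes by -0.10, 11 of 14 core genes were negative and the class median was -0.04. No direction of the core class held under every setting.

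**Figure D2:**
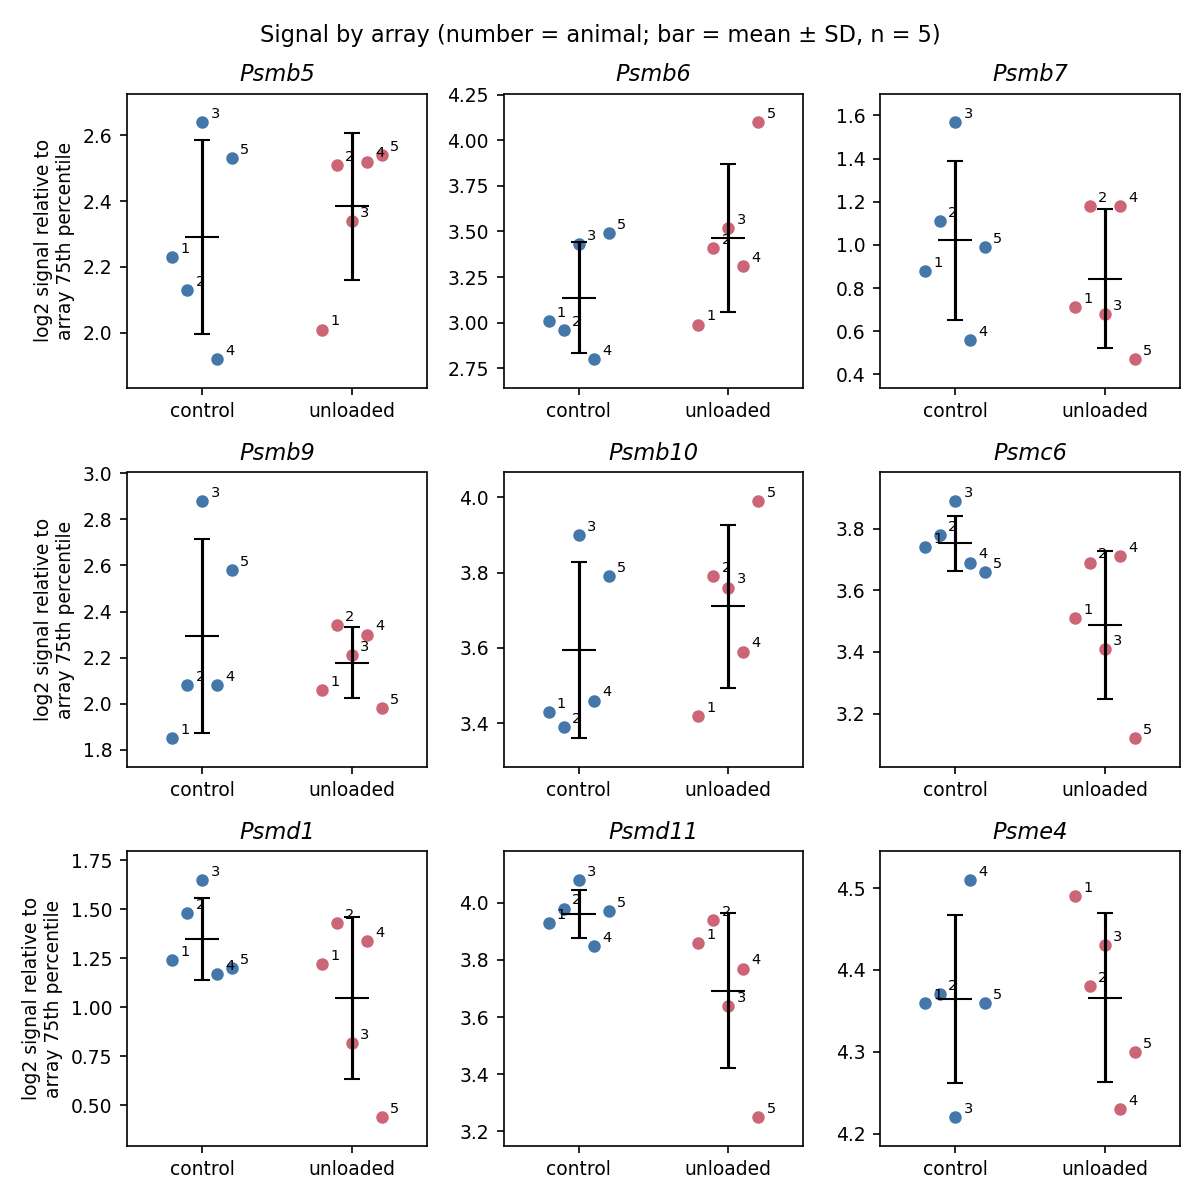
Log2 signal relative to the array's 75th percentile (vertical axis, a separate range for each gene) for 9 genes on each of the 10 arrays, with the animal's number beside its point and the mean ± SD of each group of 5 as a bar. The groups overlap for all 9 genes, and unloaded animal 5 is the highest array for Psmb6 and Psmb10 and the lowest for Psmb7, Psmc6, Psmd1 and Psmd11.

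The immunoproteasome was represented by Psmb9 and Psmb10, which take the places of Psmb6 and Psmb7. Psmb9 read 1.85, 2.08, 2.88, 2.08 and 2.58 in controls and 2.06, 2.34, 2.21, 2.30 and 1.98 in unloaded animals. The controls spread further than the unloaded animals, with an SD of 0.42 against 0.15, and enclosed all of them. The difference was -0.12 ± 0.17 (SE, 95% interval -0.49 to 0.25), and 0.03 without control 3, the highest array. Psmb10 read 3.43, 3.39, 3.90, 3.46 and 3.79 in controls and 3.42, 3.79, 3.76, 3.59 and 3.99 in unloaded animals. Its difference was 0.12 ± 0.13 (SE, 95% interval -0.17 to 0.41). On slide 2 alone Psmb10 stood at -0.14, and the class median was -0.26. The pair therefore differed in sign over all arrays and had the same sign on slide 2. Set beside the subunits they replace, Psmb9 stood at -0.12 where Psmb6 stood at 0.32, and Psmb10 at 0.12 where Psmb7 stood at -0.18. The 95% intervals of all 4 values included 0, and the differences between them were not tested.

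The 19S regulatory particle was represented by 17 genes, 6 ATPases of the base, 3 other base subunits and 8 subunits of the lid. Negative differences made up 13 of the 17, or 76.5%, against 39.6% of all genes, and the class median was -0.10. By position the medians were -0.05 for the ATPases, -0.16 for the other base subunits and -0.07 for the lid. The count moved with the scaling, and so did its reference. With median scaling 16 of 17 were negative, against 58.2% of all genes, and 9 of 17 with quantile or cyclic loess normalization, against 44.9% and 45.2%. On slide 2 alone it was 15 of 17, against 52.0%. With body weight as a covariate 8 of 17 were negative, against 39.3% of all genes. The class median was then 0.01, so its sign turned, and the median of all genes was 0.04. The class median was -0.02 without control 3 or with the mean of all probes of a gene, against 0.05 and 0.06 for all genes. It was -0.04 with quantile or cyclic loess normalization, against 0.02 for all genes. The count was 10 of 17 without control 3, without unloaded animal 1 or without unloaded animal 5. The shares of all genes with a negative difference were then 39.5%, 39.2% and 40.6%, in that order. The genes of the particle share arrays and move together across them, so their number does not count as independent observations.

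Psmc6, an ATPase of the base, read 3.74, 3.78, 3.89, 3.69 and 3.66 in controls and 3.51, 3.69, 3.41, 3.71 and 3.12 in unloaded animals. In 3 unloaded animals it was below all controls and in the other 2 within their range. The difference was -0.26 ± 0.12 (1.20-fold lower, SE, adjusted p = 0.300 in limma). Its other probe, which was built on a different cDNA record, had a difference of -0.17 (adjusted p = 0.310 in limma). Psmd11, a scaffold subunit of the lid, read 3.93, 3.98, 4.08, 3.85 and 3.97 in controls and 3.86, 3.94, 3.64, 3.77 and 3.25 in unloaded animals. Here too 3 of 5 unloaded animals lay below all controls, and the difference was -0.27 ± 0.12 (1.21-fold lower, SE, adjusted p = 0.307 in limma). The other Psmd11 probe, also built on a different record, was far dimmer, with a mean of -3.47 against 3.83. It had 0.25 ± 0.14 (SE), so the probes of Psmd11 disagreed in sign. Both genes had their lowest value in unloaded animal 5, and without it the differences were -0.17 for Psmc6 and -0.16 for Psmd11. Their count of 2 at an unadjusted p below 0.05 was 0 without control 1, 2 or 3 or without unloaded animal 3 or 5. It was 1 without control 5 or unloaded animal 1 or 4, and 3 without control 4 or unloaded animal 2.

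Psmd1, a scaffold of the base, read 1.24, 1.48, 1.65, 1.17 and 1.20 in controls and 1.22, 1.43, 0.82, 1.34 and 0.44 in unloaded animals. Unloaded animals 3 and 5 lay below every control and the other 3 among them. The difference of -0.30 ± 0.18 (SE, 95% interval -0.68 to 0.08) was -0.15 without unloaded animal 5. Psmd6, a lid subunit, had -0.24 ± 0.13 (SE, adjusted p = 0.354 in limma), with 3 of 5 unloaded animals below all controls. Smaller negative values were found for Psmd2, the ubiquitin-binding base scaffold (-0.16 ± 0.11, SE), and Psmc2, a base ATPase (-0.15 ± 0.10, SE). Psmd14, the lid enzyme that cuts ubiquitin from substrates, had -0.11 ± 0.10 (SE) on its brighter probe and 0.08 on the other, and Psmd7, its catalytically inactive partner, -0.11 ± 0.09 (SE). Psmd2 also disagreed between probes, with 0.10 on the dimmer one. Psmd4, a ubiquitin receptor of the base, had the highest value of the particle, 0.15 ± 0.15 (SE, 95% interval -0.17 to 0.48), and its dimmer probe had -0.11. The remaining 8 genes of the particle lay between -0.10 and 0.09.

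The regulators that bind the core in place of the 19S particle showed small differences. Psme1, which encodes the alpha subunit of the interferon-inducible 11S activator, had -0.06 ± 0.12 (SE, 95% interval -0.32 to 0.19). The probes for its beta subunit were assigned by record to Psme2b-ps, a near-identical copy of Psme2, and the array cannot tell the copies apart. They had 0.04 ± 0.11 (SE) and -0.06. The other 3 genes of the group, the nuclear activators Psme3 and Psme4 and the inhibitor Psmf1, lay between -0.06 and 0.00 on their brightest probes. The dimmer probes of Psmf1 had 0.12 and 0.20, and those of Psme4 -0.16, 0.12 and 0.25. With median scaling all 5 genes of the group were negative, against 58.2% of all genes, and the class median was -0.13 against -0.04. That scaling moved the median of all genes by -0.10.

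Of the assembly factors of the 19S base, Psmd5 had 0.05 ± 0.11 (SE), Psmd9 0.18 ± 0.13 (SE) and Psmd10 0.03 ± 0.10 (SE). All 3 were positive, but 2 of 3 were negative without unloaded animal 5 and with median scaling, and all 3 on slide 2 alone. The dimmer probe of Psmd9 had -0.11. The chaperones of the alpha ring, Psmg1, Psmg2 and Psmg3, are on the array under older names and so fall outside the name rule. They had 0.06 ± 0.10, -0.21 ± 0.12 and 0.04 ± 0.11 (SE). Psma8, an alpha subunit of the testis, was well above background on 10 of 10 arrays and had 0.18 ± 0.15 (SE, adjusted p = 0.507 in limma). Psmc3ip, a meiotic recombination factor that shares the name pattern but is no part of the proteasome, had 0.07 ± 0.09 (SE).

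The variation between animals of the same group was larger for the core than the difference between groups: the SD of its mean was 0.20 in controls and 0.15 in unloaded animals, against a difference of 0.03. The mean of the 14 core genes, each centred on its own mean over the 10 arrays, was -0.09, -0.05, 0.22, -0.29 and 0.13 in controls and -0.25, 0.12, 0.03, 0.08 and 0.09 in unloaded animals. Control 3 was the highest and control 4 the lowest, and unloaded animal 1 stood below the other 4 unloaded animals. The mean over the 17 genes of the 19S particle was -0.07, 0.06, 0.25, -0.13 and 0.09 in controls and -0.11, 0.13, -0.10, 0.09 and -0.22 in unloaded animals. Control 3 was again the highest, and unloaded animal 5 the lowest. The mean of Psmb9 and Psmb10 was -0.30, -0.21, 0.44, -0.17 and 0.24 in controls and -0.21, 0.12, 0.04, 0.00 and 0.04 in unloaded animals. Controls 3 and 5 stood above the other arrays of both groups.

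**Figure D3:**
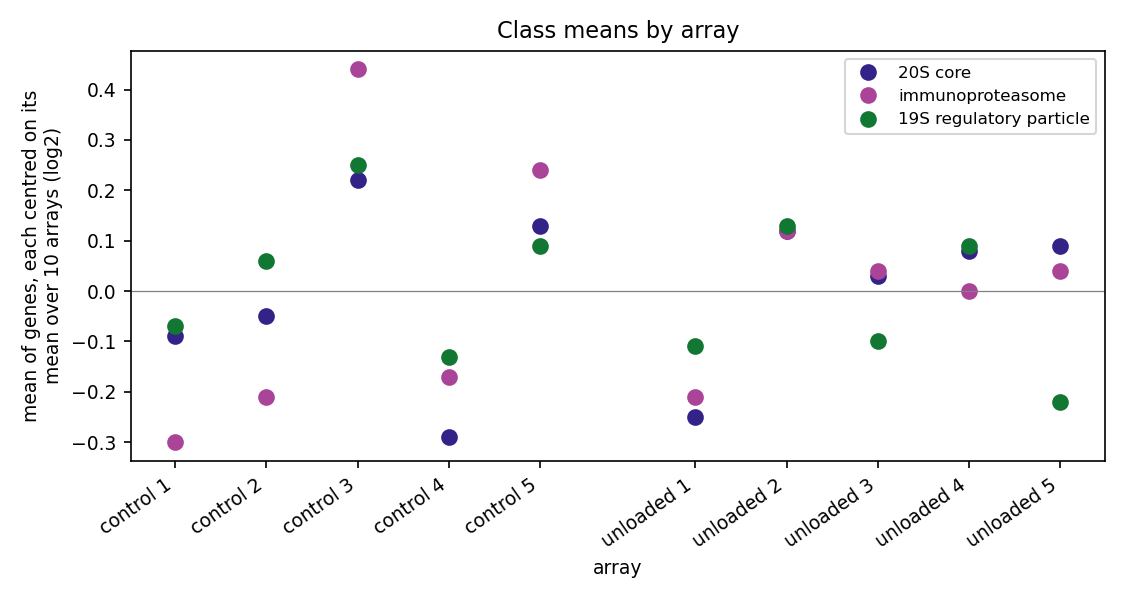
Mean of the core, immunoproteasome and 19S genes on each array (vertical axis, log2, each gene first centred on its mean over the 10 arrays). The 3 classes are all highest in control 3, and in unloaded animal 5 the 19S particle (-0.22) lies below the core (0.09).

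To describe that shared variation, each gene's deviations from its 2 group means were correlated over the 10 arrays with the mean deviation of the core genes, leaving out the gene itself. The points of such a correlation share the array, its scaling and its RNA, so the values are a description and carry no test. The 14 core genes had a median Pearson r of 0.78, from 0.57 for Psmb7 to 0.97 for Psmb5. Over 18908 genes the median was -0.05, and 5% of genes lay above 0.74. The core median was between 0.68 and 0.89 under the other scalings and without each array in turn. The value that 5% of all genes exceeded moved too: it was 0.74 beside the core median of 0.68 without unloaded animal 1, and 0.82 beside 0.83 with median scaling. The genes of the 19S particle had a median of 0.63, from 0.04 for Psmd11 to 0.83 for Psmc3, and Psmb9 and Psmb10 had 0.71 and 0.81. Among the low values in the particle were Psmd3 (0.08), Psmd1 (0.14) and Psmc6 (0.15). The mean of the core and the mean of the 19S particle had an r of 0.67 (Spearman's rho 0.67), which was 0.87 over 9 arrays without unloaded animal 5. Unloaded animal 5 also had the lowest share of spots well above background, 89.8%, and the part of that share in its values was not tested.

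**Figure D4:**
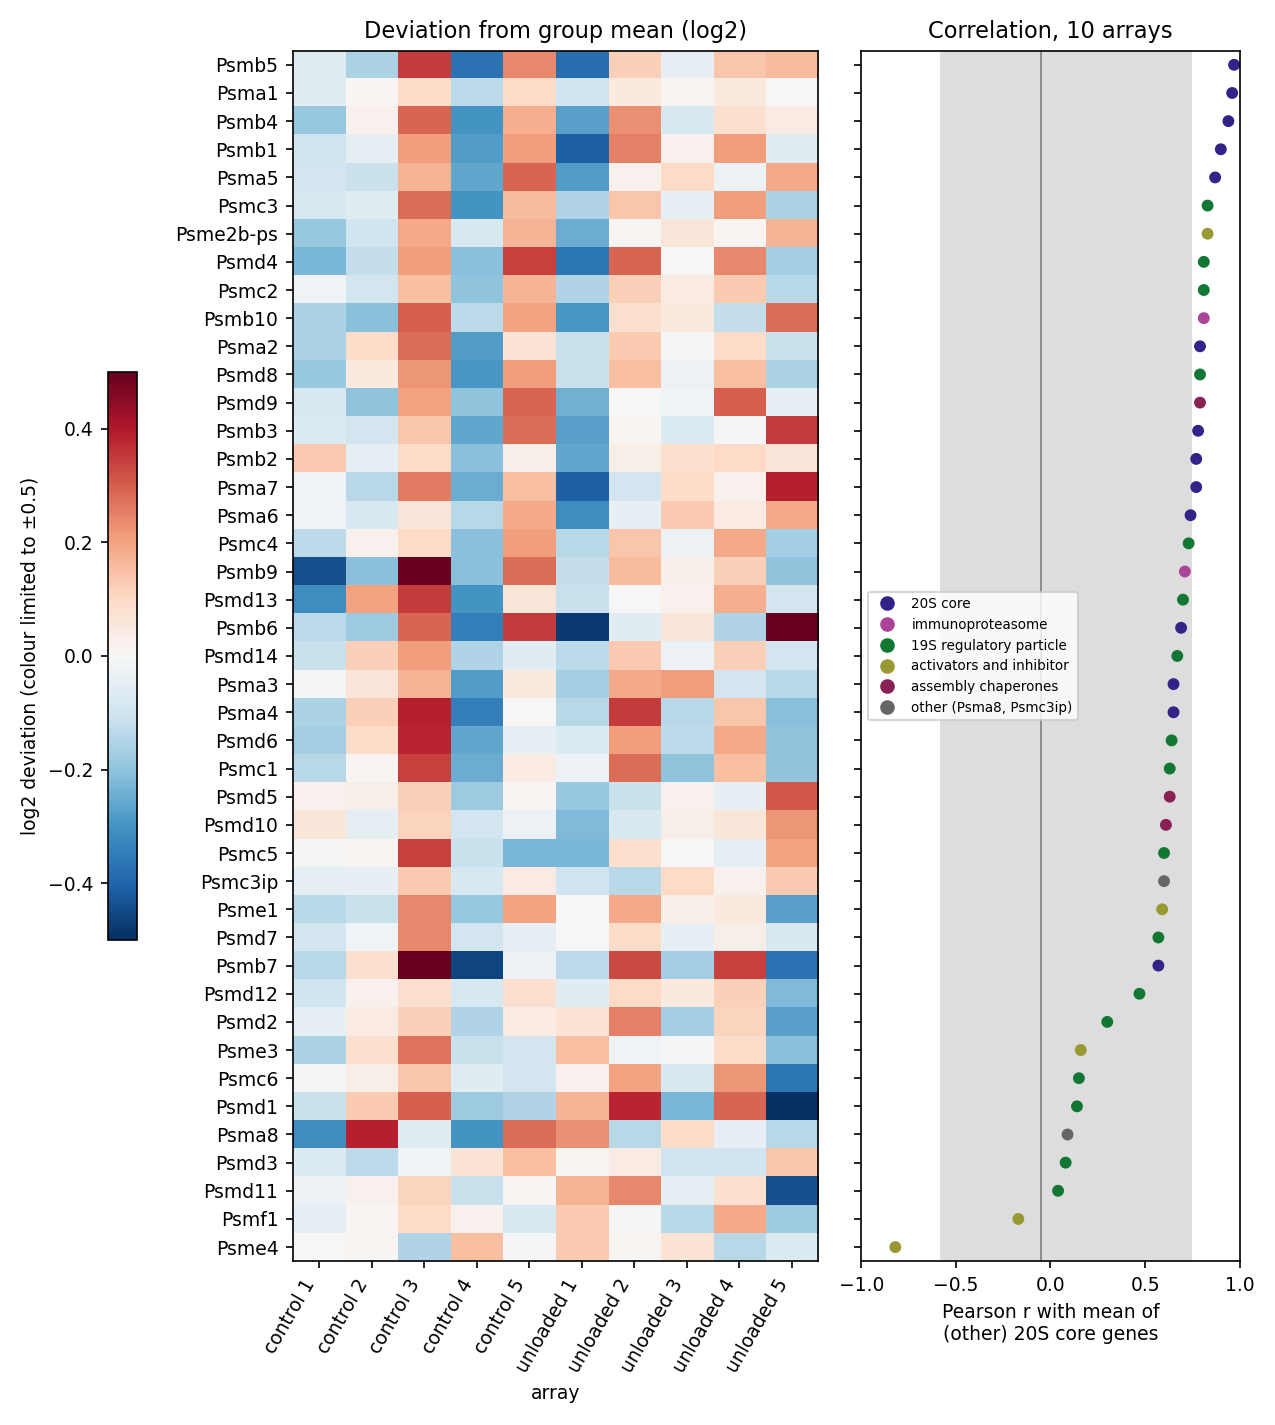
Left, deviation of each of the 43 genes from its group mean on each array (log2, colour limited to 0.5 in either direction). Right, Pearson r of those deviations with the mean of the other 20S core genes over 10 arrays, with the 5% to 95% range of all genes in grey; core genes lie between 0.57 and 0.97, and Psme4 at -0.82 is the lowest.

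The chaperones of the alpha ring varied with the core although the name rule did not take them in. The mean of Psmg1, Psmg2 and Psmg3 had an r of 0.90 with the core mean (Spearman's rho 0.89), and 0.81 without the 2 arrays farthest from the median. That mean also had 0.85 with the mean of Psmb9 and Psmb10 and 0.80 with the mean of the 19S particle, so the trait was not particular to the core. With the core mean, Pomp, the maturation factor of the core, had 0.68, and Adrm1, a ubiquitin receptor of the 19S particle, 0.33. At the other end stood Psme4, which encodes the activator PA200 and was named here after its values were seen. Its controls read 4.36, 4.37, 4.22, 4.51 and 4.36 and its unloaded animals 4.49, 4.38, 4.43, 4.23 and 4.30. It was highest in control 4 and unloaded animal 1, where the core was lowest, and lowest in control 3, where the core was highest. Its r with the core was -0.82, and -0.56 without the 2 farthest arrays. Its other 3 probes had -0.41, -0.22 and -0.51, and with median scaling the brightest probe had -0.37. The difference of Psme4 between groups was 0.00 ± 0.09 (SE) on its brightest probe, and -0.16, 0.12 and 0.25 on the other 3.

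Promoters of 36 of the 43 genes were found in RefSeq tables of assembly GRCm38.p6, 38 promoters in all. Shown are the 250 bases before the start for the genes with the highest r in the core (Psmb5 and Psma1), for the core gene with the largest difference (Psmb6), and for Psme4. All are written 5′ to 3′ on the strand of the gene. Capitals mark TGACNNNGC, the antioxidant response element bound by Nfe2l1 and Nfe2l2, and CCAAT, the box bound by NF-Y, each on either strand. The motifs searched do not overlap in these windows.
Psmb5, chr14:54617996-54618245, minus strand: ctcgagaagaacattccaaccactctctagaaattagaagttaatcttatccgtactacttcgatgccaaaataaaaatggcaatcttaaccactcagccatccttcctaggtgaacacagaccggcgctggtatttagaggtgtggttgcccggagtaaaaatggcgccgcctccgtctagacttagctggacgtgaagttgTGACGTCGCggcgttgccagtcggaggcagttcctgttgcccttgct
Psmb6, chr11:70525107-70525356, plus strand: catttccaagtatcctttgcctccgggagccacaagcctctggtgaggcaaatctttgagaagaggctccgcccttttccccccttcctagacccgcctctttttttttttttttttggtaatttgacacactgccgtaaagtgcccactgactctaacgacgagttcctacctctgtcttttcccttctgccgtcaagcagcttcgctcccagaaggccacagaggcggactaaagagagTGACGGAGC
Psma1, chr7:114276117-114276366, minus strand: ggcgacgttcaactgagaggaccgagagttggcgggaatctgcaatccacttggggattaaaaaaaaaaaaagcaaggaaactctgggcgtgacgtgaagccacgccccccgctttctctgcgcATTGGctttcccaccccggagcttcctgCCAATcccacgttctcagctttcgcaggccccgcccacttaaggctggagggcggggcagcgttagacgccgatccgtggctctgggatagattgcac
Psme4, chr11:30771525-30771774, plus strand: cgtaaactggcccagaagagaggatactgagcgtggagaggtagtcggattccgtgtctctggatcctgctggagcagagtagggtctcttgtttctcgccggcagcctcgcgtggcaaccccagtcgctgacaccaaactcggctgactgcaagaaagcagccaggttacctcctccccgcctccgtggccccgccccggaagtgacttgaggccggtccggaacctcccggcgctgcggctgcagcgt
Psmb5 and Psmb6 each hold 1 TGACNNNGC, Psma1 holds CCAAT on both strands, and Psme4 holds neither. TGACNNNGC was found in 5 of the 38 member promoters, or 13.2%, against 10.2% of the 32851 promoters in the table. CCAAT was found in 14 of 38, or 36.8%, against 33.8% of all promoters, and in 6 of 12 promoters of the core. The interferon-stimulated response element was found in 3 of 38, or 7.89%, against 2.98%, and in neither promoter of Psmb9 and Psmb10. The gamma-activated site TTCNNNGAA was in 0 of 38, against 7.02%. All 4 motifs were searched on both strands. A match describes these letters only, and says nothing of binding.

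Factors that act on transcription of proteasome genes were read from a list of 13 genes, of which 2 had positive and 11 negative differences, with a median of -0.10 and 0 past the adjusted threshold. Nfe2l1, the factor that raises proteasome genes when the proteasome is inhibited, had -0.03 ± 0.10 (SE). Nfe2l2, its relative in the oxidative stress response, read 3.21, 3.18, 3.19, 3.14 and 3.14 in controls and 2.98, 3.09, 2.94, 2.87 and 2.60 in unloaded animals. Every unloaded animal lay below every control, which 1.80% of all genes showed in that direction, and the difference was -0.28 ± 0.10 (SE, adjusted p = 0.258 in limma). Of its 4 probes, 3 had a negative difference. Stat3 had -0.31 ± 0.12 (SE), Maff, a small partner of these factors, 0.37 ± 0.17 (SE), and Ngly1, the glycosidase that activates Nfe2l1, -0.18 ± 0.10 (SE). Stat3 and Ngly1 each had 2 probes, of which 1 had a negative difference. Maff read -0.10 in unloaded animal 5, against -1.22 to -0.81 in the other unloaded animals and -1.26 to -1.15 in controls.

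Of the proteasome's partners outside the name rule, 15 genes were tested, with 4 positive and 11 negative differences and a median of -0.09. Ube3a, a ubiquitin ligase that binds the proteasome, had -0.25 ± 0.11 (SE, adjusted p = 0.290 in limma). Akirin2, which carries proteasomes into the nucleus, had -0.16 ± 0.09 (SE), Uchl5, a deubiquitinase of the 19S particle, -0.12 ± 0.09 (SE), and Nub1 -0.13 ± 0.10 (SE). Of the 3 probes of Nub1, 1 had a negative difference. None of the 15 passed the adjusted threshold.

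Upstream of the proteasome, 20 genes of ubiquitin supply, ubiquitin transfer and substrate shuttling were tested, with 6 positive and 14 negative differences, a median of -0.13 and 0 past the adjusted threshold. Ubb, which encodes ubiquitin as a chain of repeats, had -0.01 ± 0.12 (SE), and Rps27a, which encodes ubiquitin fused to a ribosomal protein, had 0.09 ± 0.09 (SE). Uba6, a ubiquitin-activating enzyme, had 0.32 ± 0.10 (SE, adjusted p = 0.244 in limma), a positive sign that 2 of its 5 probes had. The shuttle factors Ubqln2 and Rad23b had -0.39 ± 0.17 and -0.33 ± 0.15 (SE), both lowest in unloaded animal 5.

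Genes of the interferon gamma response and of antigen processing, the setting in which the immunoproteasome works, had 6 positive and 12 negative differences among 18 tested, a median of -0.11 and 0 past the adjusted threshold. Tap2, a chain of the peptide transporter, read between 1.20 and 1.35 in controls and between 1.36 and 1.62 in unloaded animals. Its groups did not overlap, which 1.50% of all genes showed, with unloaded animals higher, and the difference was 0.20 ± 0.09 (SE, adjusted p = 0.296 in limma). Tap1, the other chain, had 0.01 ± 0.17 (SE). B2m, the light chain of class I molecules, had -0.33 ± 0.15 (SE), and Irgm1, an interferon-induced GTPase, -0.28 ± 0.13 (SE). Across the 10 arrays, with group means removed, the mean of this list had an r of 0.89 with the mean of Psmb9 and Psmb10, and 0.69 without the 2 farthest arrays. With the core mean it had 0.53, and with the mean of the 19S particle 0.67. The mean of Psmb9 and Psmb10 also had an r of 0.83 with the core mean, and 0.98 without the 2 farthest arrays. With the mean of Psmg1, Psmg2 and Psmg3 it had 0.85, so a high value was not particular to the interferon list. Tap1 had 0.87 with Psmb9 and 0.33 with Psmb10.

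The most one-sided marker lists between groups were those of chondrocytes (8 of 8 positive, median 0.28), osteoblasts and osteocytes (11 of 12 positive, median 0.10), osteoclasts (7 of 8 positive, median 0.10) and adipocytes (7 of 7 negative, median -0.15), with 0 markers past the adjusted threshold in limma and, at an unadjusted p below 0.05, 1 higher in each of the osteoblast and osteoclast lists. Across arrays their means had an r with the 19S particle of 0.25, 0.07, 0.50 and 0.38, in that order, and with the core of -0.36, -0.20, 0.19 and 0.48. Neutrophil markers, 12 of 12 tested, had a median difference of 0.00, with a mean level of 4.65 to 4.92 in controls and 4.55 to 4.91 in unloaded animals. Their mean had an r of 0.91 with the mean of the 19S particle (0.88 without unloaded animal 5), and 0.56 with the core. Monocyte and macrophage markers (11 tested, 3 positive and 8 negative) had 0.86 with the particle, and erythroid markers (10 tested, 3 positive and 7 negative) 0.82. At an unadjusted p below 0.05 in limma, 3 of the 11 and 2 of the 10 were lower, against 5.87% of all genes. In both lists 0 were higher. T and NK cell markers, 14 of 14 tested, had 10 positive and 4 negative differences. At that unadjusted threshold 4 of the 14 were higher, against 9.90% of all genes, and 0 were lower. Their mean level was -0.68 to -0.46 in controls and -0.54 to -0.40 in unloaded animals. Their r was -0.14 with the particle and 0.31 with the core. High values with the particle were not limited to cell markers. The ubiquitin and shuttle genes had 0.90, the proteasome's partners 0.83 and the mean of Psmg1, Psmg2 and Psmg3 0.80. The interferon and antigen processing genes had 0.67, and the transcription factors of proteasome genes 0.58. All markers measured were well above background on at least 1 array. Their part in the values of the proteasome genes was not tested.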

How the data were processed

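RNA from 10 femurs was labelled with Cy3 and hybridised to 1-colour Agilent arrays. The authors used Agilent Feature Extraction 9.1.3.1, per the file headers. The deposited values are intensity on a linear scale, and the deposited series matrix holds the same intensity. Groups came from the labels, which number animals within each group, so arrays are biological replicates.

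Spots of a probe were averaged as log2, leaving out 97 outlier spots, and each array's 75th percentile was subtracted. Before scaling that percentile was 637 to 903 intensity units. The number of arrays limits the precision. Tests took in the 38629 probes well above background on 4 or more of a group's 5 arrays, with 3 or more values per group. limma 3.58.1 in R 4.3.3 (lmFit, eBayes) compared the groups, with Benjamini-Hochberg adjustment over those probes. The brightest tested probe stood for a gene. Gene names came from RefSeq, assembly GRCm38.p6. Slides were read from the file headers.

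The members, the classes and the lists were chosen with earlier results of these data known. Individually named members were the catalytic, immunoproteasome and 11S subunits, the assembly factors, the 8 smallest p-values in each direction, outlying arrays, and genes whose probes disagreed; genes named for their correlation were chosen after their values were seen. Alternatives covered background correction, scaling, the filter on dim probes, the deposited matrix, slide, replicate number, body weight, the variance model, the probe rule and each array left out. The fit was tested on simulated data. 1 gene that the rule leaves out is not reported here. Figures were drawn with matplotlib 3.10.9.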

Additional observations from a re-analysis of the deposited data

Results flagged for a closer look

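In 98 checks of a group of 5 arrays for a value far from the other 4, 4 were found, and chance alone would give about 5% of checks. Psmb2, a core beta subunit, read 0.01 in unloaded animal 1 against 0.30 to 0.37 in the other 4. The mean of the 20S core stood at -0.25 in the same animal, against 0.03 to 0.12 in the others. Psmd7, of the 19S lid, read 2.28 in control 3 against 1.95 to 2.02. The mean of the activators and the inhibitor stood at -0.12 in unloaded animal 5, against -0.01 to 0.03.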

How the results depend on the processing

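In every setting tried, 0 members passed the adjusted threshold. Their count lower at an unadjusted p below 0.05 was 2 as reported. It was 0 with normexp background correction, cyclic loess, body weight as a covariate and slide as a fixed block. It was 1 with no filter on dim probes and with the mean of all probes of a gene. With the replicate number as a block it was 1, and 1 member was higher. Same-numbered animals correlated between -0.14 and 0.18, so no pairing by number was visible. Such values cannot tell whether the animals were matched by design. Leaving out 1 array gave 0 to 3 lower and 0 to 1 higher. Slides 1 and 3 each held 1 group, so slide as a fixed block takes its differences from slide 2, as does slide 2 alone. The 2 fits are therefore 1 comparison, of 1 control with 3 unloaded animals, and their differences are the same by construction. The class medians were -0.18 for the core, -0.19 for its catalytic genes and -0.26 for the immunoproteasome. In those fits Psmb5 was -0.24, Psmb6 -0.19, Psmb10 -0.14, Psmb3 -0.24, Psma7 -0.10, Psma8 -0.04, Psmd4 -0.21, Psmd5 -0.05, Psmd9 -0.20, Psmd10 -0.03, Psmc3ip -0.02 and Psme2b-ps -0.19, all reversed; the cause was not tested. Median scaling moved the median of all genes by -0.10. It gave -0.13 for the activators and inhibitor and reversed Psmb5 (-0.00), Psmd5 (-0.04), Psmd10 (-0.07), Psmc3ip (-0.03) and Psme2b-ps (-0.05). Body weight as a covariate reversed Psmb7 (0.02), Psmb9 (0.02) and Psme1 (0.00), and turned the 19S median to 0.01, beside 0.04 for all genes. Cyclic loess reversed Psmb2 (0.00), quantile normalization Psmb2 (0.01), and the mean of all probes Psme2b-ps (-0.01). Leaving out 1 array gave Psmb2 -0.07 to 0.04, Psmb9 -0.23 to 0.03, Psme1 -0.11 to 0.00, Psmd5 -0.02 to 0.10, Psmd10 -0.03 to 0.08 and Psme2b-ps -0.01 to 0.10. The 19S genes named for small p-values and negative differences came as near to 0 as -0.01 (Psmd11), -0.02 (Psmd14) and -0.03 (Psmd2). Those values came with the mean of all probes of a gene, which takes in the far dimmer probe of Psmd11. With 5 arrays a group and 1 control on slide 2, slide and group are only partly separable. The correlations with the core under other scalings and without each array were alternatives chosen after seeing the data.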
